A study of Mus musculus with 19 samples.

Results

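Clade B serpins and the urokinase receptor were followed over the arrays of sorted type 1 conventional dendritic cells (DC1), the dendritic cells that present antigen to CD8 T cells. The set held 9 genes chosen by symbol with results of these data in view, namely Serpinb1a, Serpinb2, Serpinb6a, Serpinb6b, Serpinb8, Serpinb9, Serpinb10, the urokinase receptor gene Plaur and the urokinase gene Plau. A member was read from its brightest probe set with a single gene symbol, which 8 of the 9 had in the spleen table of 22180 genes and all 9 had in the lymph node table of 19938 genes. Levels in these data had put Serpinb1a in the set as a gene of migration in skin-draining lymph nodes (SDLN), and Serpinb10 and Plaur as genes higher without Batf3. For Serpinb10 and Plaur the spleen comparison by Batf3 is counted as used too. Values of these genes in those comparisons are given as a description without a test.

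All mice were on a C57Bl/6j background, and the cells came from wild-type (WT) mice or from mice lacking Batf3, a transcription factor that DC1 need. Irf8VENUS is a fluorescent reporter of Irf8. From spleens of female mice came 3 Batf3-/- Irf8VENUS+ arrays, 3 arrays of WT cells with the reporter (WT Irf8VENUS+) and 2 of WT cells without it (WT Irf8VENUS-). The lymph nodes, all from mice with Irf8VENUS, gave 5 migratory arrays, 3 Batf3-/- and 2 WT, and 6 resident arrays, 3 of each genotype. Migratory cells, which arrive from the skin, were sorted as high in MHC class II and intermediate in CD11c, and resident cells as intermediate in MHC class II and high in CD11c. The spleen sort used CD24 and XCR1 together, except for replicate 3 in each Irf8VENUS+ group, which used CD24 alone. The spleen protocol lists CD172a+, which marks cDC2, the second conventional lineage, whereas lymph node cells were taken as CD172-. Nothing in the labels states that each array is a different mouse, so a p-value here reflects array-to-array spread alone, which may be technical.

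Clade B serpins are mostly intracellular protease inhibitors: the protease cuts the serpin's exposed loop and is then trapped in a complex with it. In immune cells they are known for holding in check proteases that leak from granules or lysosomes. Urokinase turns plasminogen into the protease plasmin, and its receptor, which is anchored to the membrane by a lipid, holds that activity at the cell surface and works with integrins and vitronectin in adhesion. Serpinb2 encodes an inhibitor of urokinase, which ties the serpins to the receptor.

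The targeted gene was low where the labels place its loss. Batf3 had log2 intensities of 5.29 to 7.08 on Batf3-/- spleen arrays and 9.42 to 10.41 on WT spleen arrays, and of 5.50 to 6.17 on Batf3-/- lymph node arrays against 8.15 to 9.23 on WT ones. Irf8, which the reporter follows, averaged 12.33 ± 0.11 (SD, n = 3) on WT Irf8VENUS+ and 11.42 ± 0.06 (SD, n = 2) on WT Irf8VENUS- spleen arrays. Ccr7, the receptor that guides dendritic cells to lymph nodes, had 11.31 to 12.66 on migratory arrays and 7.99 to 10.63 on resident arrays. The DC1 marker Xcr1 had 5.83 to 8.07 on migratory and 9.53 to 11.34 on resident arrays, and the mean of 8 DC1 markers was 6.94 to 8.12 on migratory and 9.51 to 10.46 on resident arrays. The values of 1 array spread by an SD of 1.96 and 2.03 log2 units on the migratory WT arrays, against 2.07 to 2.23 on the other lymph node arrays, which touches every comparison with migratory WT cells. Differences below are on the log2 scale with the standard error (SE) of the fit, and adjusted p-values are from limma over all genes tested, with a gene called at an adjusted p of at most 0.05. Genes were left untested, as dim, unless 2 or more arrays of a table were at or above its overall median intensity.

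Serpinb1a encodes an inhibitor of neutrophil elastase, cathepsin G and proteinase 3. It had log2 intensities of 9.59, 9.34 and 9.96 on the migratory Batf3-/- arrays, 9.86 and 9.83 on the migratory WT arrays, 5.07, 4.96 and 4.72 on the resident Batf3-/- arrays and 5.21, 4.81 and 4.49 on the resident WT arrays. Every migratory array was far above every resident array, and within each state the genotypes overlapped. The migratory minus resident log2 difference was 4.71 ± 0.21 (SE) in Batf3-/- cells, rank 2 of 11931 tested genes counted from the highest, and 5.01 ± 0.23 in WT cells, rank 6. Serpinb1a was thus near the top of both lists by size, which is how it was chosen. The Batf3-/- minus WT difference, which played no part in that choice, was 0.08 ± 0.21 among resident cells (adjusted p = 1.00, limma, 95% interval -0.37 to 0.54). It was -0.21 ± 0.23 among migratory cells (adjusted p = 0.571, 95% interval -0.72 to 0.30), so no difference by genotype was detected in either state.

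**Figure D1:**
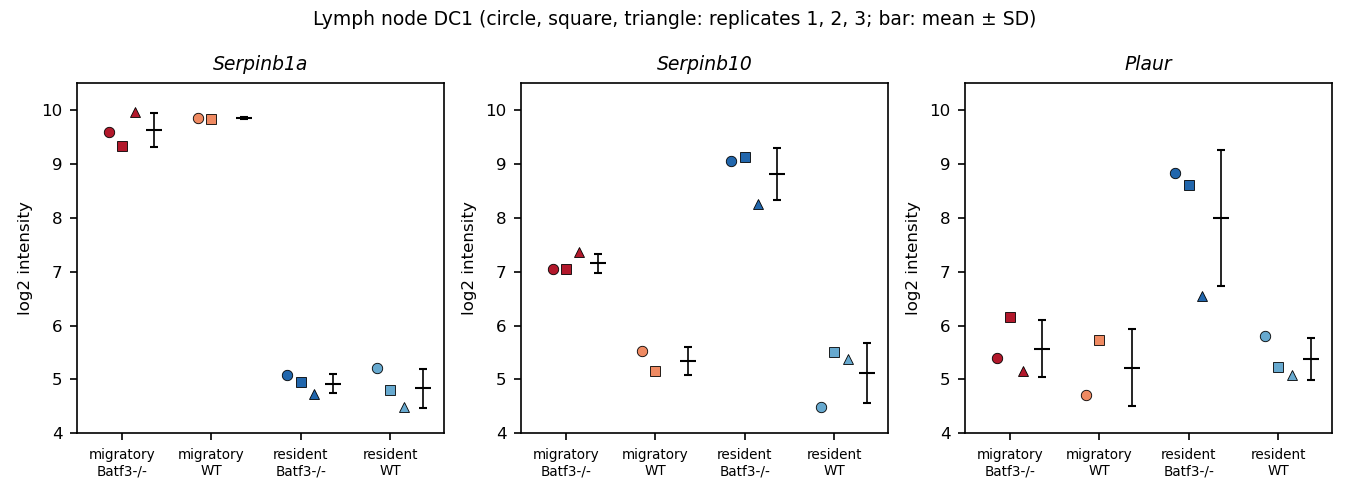
Log2 intensity of Serpinb1a, Serpinb10 and Plaur on each lymph node array, by group, with the group mean ± SD beside the points (n = 3, or 2 for migratory WT). Serpinb1a is at 9.34 to 9.96 on migratory and 4.49 to 5.21 on resident arrays of both genotypes, whereas Serpinb10 and Plaur are highest on the resident Batf3-/- arrays.

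The remaining chromosome 13 members followed migration too, by less. Serpinb9 encodes the inhibitor of granzyme B. It had 9.37, 9.22 and 8.67 on the migratory Batf3-/- arrays, 7.96 and 8.17 on the migratory WT arrays, 6.78, 6.22 and 5.66 on the resident Batf3-/- arrays and 6.32, 6.20 and 6.26 on the resident WT arrays. Migratory arrays lay above resident ones in both genotypes, and the migratory Batf3-/- arrays lay above the migratory WT ones. The migratory minus resident difference of Serpinb9 was 2.87 ± 0.26 in Batf3-/- cells (adjusted p = 3.66e-06) and 1.81 ± 0.29 in WT cells (adjusted p = 3.29e-04). Serpinb6b is a close relative of Serpinb6a. It had 11.48, 11.53 and 10.66 on the migratory Batf3-/- arrays, 10.36 and 10.67 on the migratory WT arrays, 9.35, 9.18 and 8.26 on the resident Batf3-/- arrays and 9.07, 9.03 and 8.85 on the resident WT arrays. Its groups separated by state in both genotypes, with differences of 2.29 ± 0.28 in Batf3-/- (adjusted p = 4.42e-05) and 1.53 ± 0.32 in WT cells (adjusted p = 0.00181). Serpinb6a encodes an inhibitor of cathepsin G. It had 6.21, 5.83 and 6.23 on the migratory Batf3-/- arrays, 6.27 and 6.05 on the migratory WT arrays, 4.76, 4.61 and 4.51 on the resident Batf3-/- arrays and 4.68, 4.63 and 4.82 on the resident WT arrays. Its difference was alike in size in both genotypes, 1.46 ± 0.14 in Batf3-/- and 1.45 ± 0.16 in WT cells. Only its migratory arrays reached the median intensity, so Serpinb6a passed the filter on dim genes through them alone. These differences are therefore a description without a test.

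Serpinb8, whose human counterpart is known as an inhibitor of the proprotein convertase furin, went the other way. It had 4.53, 5.06 and 4.84 on the migratory Batf3-/- arrays, 5.14 and 5.04 on the migratory WT arrays, 6.90, 6.70 and 5.51 on the resident Batf3-/- arrays and 7.10, 7.20 and 5.80 on the resident WT arrays. All migratory arrays were below all resident ones, and replicate 3 was the lowest resident array in both genotypes. The difference was -1.56 ± 0.38 in Batf3-/- (adjusted p = 0.00633) and -1.61 ± 0.43 in WT cells (adjusted p = 0.00816). Within the arrays that share a replicate number, whose titles share a code, it ranged from -2.36 to -0.67 in Batf3-/- cells.

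Across all tested genes, 36.6% were called between migratory and resident Batf3-/- cells and 49.2% between migratory and resident WT cells, at an adjusted p of at most 0.05. Against that background, of the 4 members apart from Serpinb1a, Serpinb10 and Plaur, Serpinb6b and Serpinb9 were called higher and Serpinb8 lower in both genotypes. Serpinb6a was higher by description. Serpinb10 and Plaur, whose choice used arrays of these groups, differed by -1.67 and -2.42 in Batf3-/- cells and by 0.23 and -0.16 in WT cells. In Batf3-/- cells 14.1% of all genes were called higher and 22.6% lower, and in WT cells 16.0% higher and 33.2% lower, with a median over all tested genes of -0.02 in Batf3-/- and -0.16 in WT cells. With array spread (the SD of an array's values) added to the fit, Serpinb8 was no longer called in WT (-0.52, adjusted p = 0.810) or Batf3-/- cells (-1.20, adjusted p = 0.0869). The WT difference of Serpinb6a was then 1.15. B cell markers moved with migration in WT cells: the mean log2 level of the 3 named B cell markers was 6.30 to 6.58 on migratory WT arrays and 4.16 to 4.94 on resident WT arrays, with 3 of 3 called higher. It was 4.81 to 6.08 on migratory and 4.61 to 4.97 on resident Batf3-/- arrays, with 0 of 3 called and 1 at an unadjusted p under 0.05 (limma). Of the 4 named T cell markers 2 were called higher in migratory WT cells. Of 6 tested cDC2 markers 5 were called lower in migratory cells of each genotype, with list means of 4.80 to 5.14 on migratory and 7.15 to 7.52 on resident Batf3-/- arrays, and of 4.85 to 4.97 on migratory and 6.45 to 7.34 on resident WT arrays. Of the 8 DC1 markers, 7 were called lower in each genotype and 1 higher in WT cells, and of the maturation markers 7 of 7 were called higher in each. The Langerhans cell marker Cldn1 was called lower in both genotypes, and 1 of 4 plasmacytoid dendritic cell markers higher. Of 6 tested macrophage and monocyte markers, 2 were called higher and 1 lower in migratory Batf3-/- cells, and 1 higher and 2 lower in migratory WT cells. In these sorted pools fewer cells of a type and less RNA per cell cannot be told apart, and the part of such cells in the member values was not tested.

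**Figure D2:**
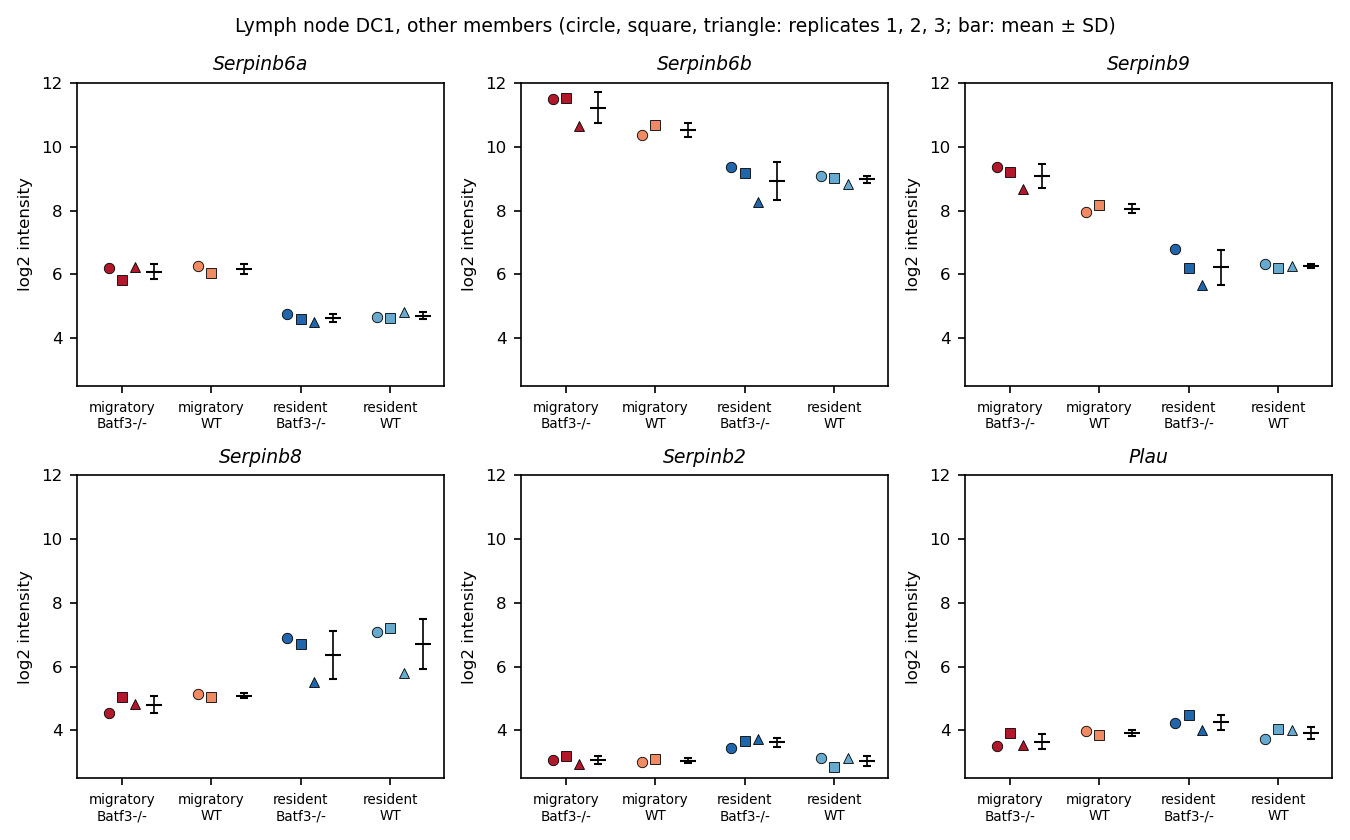
Log2 intensity of the other 6 members on each lymph node array, by group, with the group mean ± SD beside the points. Serpinb6a, Serpinb6b and Serpinb9 are higher and Serpinb8 is lower on migratory than on resident arrays of both genotypes, and Serpinb2 and Plau stay under a log2 intensity of 4.5.

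The clade B serpins lie on 2 chromosomes. In RefSeq's GRCm38.p6 gene order, the clade B genes form a run of 16 on chromosome 13, which holds Serpinb1a, Serpinb6b, Serpinb9 and Serpinb6a, and a run of 12 on chromosome 1, which ends in Serpinb2, Serpinb10 and Serpinb8 as direct neighbours. On chromosome 13, 13 of the 16 had a single-symbol probe set and 6 passed the filter on dim genes. All 6 had higher means in migratory than in resident cells of both genotypes, and this count is a description because members were chosen from it. Serpinb1b, Serpinb9b and Serpinb6a had resident means under the median of 4.82 and migratory means above it. For these genes the filter itself favoured that direction. The 2 that were not members are given without a test. Serpinb1b had differences of 1.44 ± 0.36 in Batf3-/- and 1.97 ± 0.40 in WT cells, and Serpinb9b had 1.94 ± 0.26 and 0.86 ± 0.29. On chromosome 1 the 2 that passed the filter were Serpinb10 and Serpinb8, and only Serpinb8 had lower means in migratory cells of both genotypes, since the difference of Serpinb10 was -1.67 in Batf3-/- and 0.23 in WT cells. Genes under the filter on chromosome 13 had means of 2.59 to 4.04, and Serpinb9e, one of them, still had a difference of 0.28 in Batf3-/- and 1.32 in WT cells.

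**Figure D3:**
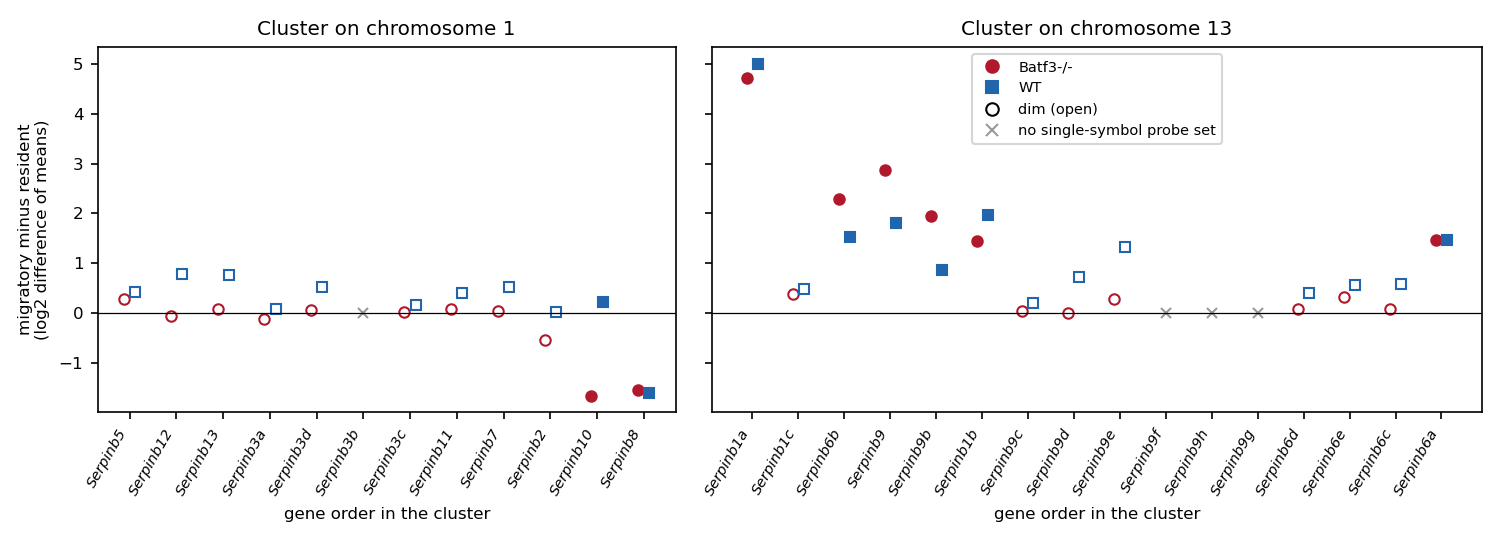
Migratory minus resident difference of mean log2 intensity for the clade B serpins in gene order on chromosomes 1 and 13, for Batf3-/- (circles) and WT (squares) cells. Filled symbols passed the filter on dim genes, open symbols did not, and crosses at 0 mark genes without a single-symbol probe set. All 6 filled genes on chromosome 13 lie above 0 in both genotypes, a direction that the filter favoured for Serpinb1b, Serpinb9b and Serpinb6a.

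Serpinb10 encodes bomapin, a serpin known from human haematopoietic cells that inhibits trypsin-like proteases. It had 7.05, 7.04 and 7.36 on the migratory Batf3-/- arrays, 5.53 and 5.15 on the migratory WT arrays, 9.06, 9.13 and 8.26 on the resident Batf3-/- arrays and 4.48, 5.50 and 5.37 on the resident WT arrays. Resident Batf3-/- cells stood highest, migratory Batf3-/- cells next, and the WT groups were lowest and overlapped each other. The Batf3-/- minus WT difference was 3.70 ± 0.28 among resident cells, rank 1 of the 11931 genes, and 1.81 ± 0.32 among migratory cells, rank 18. Within the replicate numbers it was 4.58, 3.63 and 2.89 among resident cells, and 1.51 and 1.89 among migratory ones. The migratory minus resident difference was -1.67 ± 0.28 in Batf3-/- and 0.23 ± 0.32 in WT cells, comparisons which share arrays with those by genotype.

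Plaur encodes the urokinase receptor. It had 5.39, 6.16 and 5.16 on the migratory Batf3-/- arrays, 4.71 and 5.72 on the migratory WT arrays, 8.83, 8.61 and 6.54 on the resident Batf3-/- arrays and 5.81, 5.23 and 5.08 on the resident WT arrays. The resident Batf3-/- arrays stood above all others, with replicate 3 well below the other two, while the remaining groups overlapped. The Batf3-/- minus WT difference was 2.62 ± 0.51 among resident cells, rank 2 of 11931, and 0.35 ± 0.57 among migratory cells. Within the replicate numbers the resident difference was 3.02, 3.38 and 1.46. The migratory minus resident difference was -2.42 ± 0.51 in Batf3-/- and -0.16 ± 0.57 in WT cells. With array spread added to the fit, the difference by genotype among migratory cells was -1.66 and the migratory minus resident difference in WT cells 3.16, so these directions turned. Thus Plaur was raised without Batf3 in the resident state, by description, and Serpinb10 in both states.

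Of the 5 members whose resident Batf3-/- minus WT difference the choice did not use, 0 were called, where 1.84% of all tested genes were (limma). None of the 5 had an unadjusted p under 0.05. The differences were 0.08 for Serpinb1a, -0.08 ± 0.14 for Serpinb6a (adjusted p = 0.989), -0.05 ± 0.28 for Serpinb6b, -0.04 ± 0.26 for Serpinb9 and -0.33 ± 0.38 for Serpinb8 (adjusted p = 0.968). Among maturation markers, 3 of 7 were called higher in resident Batf3-/- than in resident WT cells (Ccl17, Ccl22 and Ccr7), and the mean of the 7 was 7.64 to 8.70 on Batf3-/- and 6.62 to 7.26 on WT arrays. All 7 had an unadjusted p under 0.05 (limma), as 9.61% of all tested genes did. DC1 markers, Batf3 itself among them, went the other way, with 3 of 8 called lower and 4 at an unadjusted p under 0.05 (limma). Their list means were 9.51 to 9.57 on Batf3-/- and 10.20 to 10.46 on WT arrays. Of 6 tested cDC2 markers, Clec10a and Mgl2 were called higher, with list means of 7.15 to 7.52 on Batf3-/- and 6.45 to 7.34 on WT arrays. The Langerhans cell marker Cldn1, the 1 of 3 that was tested, was called higher, with list means of 6.09 to 6.25 on Batf3-/- and 5.84 to 6.43 on WT arrays. Of 6 tested macrophage and monocyte markers 0 were called and 0 had an unadjusted p under 0.05 (limma), and the list's array means were 5.21 to 5.46 on Batf3-/- and 5.19 to 5.53 on WT arrays. The part of these cells or states in the Serpinb10 and Plaur values was not tested.

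Among migratory cells, 9.41% of all tested genes were called between Batf3-/- and WT. Serpinb9 was called and higher in Batf3-/- cells, by 1.02 ± 0.29 (adjusted p = 0.0449), and it was the only one of the 5 members that the choice did not use there to be called. Its difference within replicate numbers was 1.41 and 1.05. The call was lost without migratory WT replicate 1 (0.92, adjusted p = 0.234) or 2 (1.12, adjusted p = 0.0745), and without migratory Batf3-/- replicate 1 (0.88, adjusted p = 0.147) or 2 (0.96, adjusted p = 0.134). With array spread added to the fit it was 0.10 (adjusted p = 0.942). The macrophage genes C1qa and C1qb were also called higher there, 2 of 6 tested, with list means of 5.02 to 5.13 on Batf3-/- and 4.79 to 5.07 on WT arrays. Of the 8 DC1 markers 5, Batf3 itself included, were called lower and 1, Irf8, higher in migratory Batf3-/- cells, with list means of 6.94 to 7.03 on Batf3-/- and 7.67 to 8.12 on WT arrays. The Langerhans cell marker Cldn1 was called higher, with a difference of 1.30, while 1 of 3 B cell markers and 1 of 4 plasmacytoid dendritic cell markers were called lower. The part of these cells or states in the Serpinb9 value was not tested. Serpinb6b differed by 0.71 ± 0.32 (adjusted p = 0.155) and passed the threshold without migratory Batf3-/- replicate 3 (0.99, adjusted p = 0.0226) and with the code that array titles share as a block (0.94, adjusted p = 0.0127). The neighbouring Serpinb9b, which is not a member, was 1.26 ± 0.29 higher (adjusted p = 0.0229), and it was not followed under the alternatives. Serpinb1b, the other tested clade B serpin that is not a member, was not called higher. Its means were 5.15 on migratory Batf3-/- and 5.69 on migratory WT arrays.

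**Figure D4:**
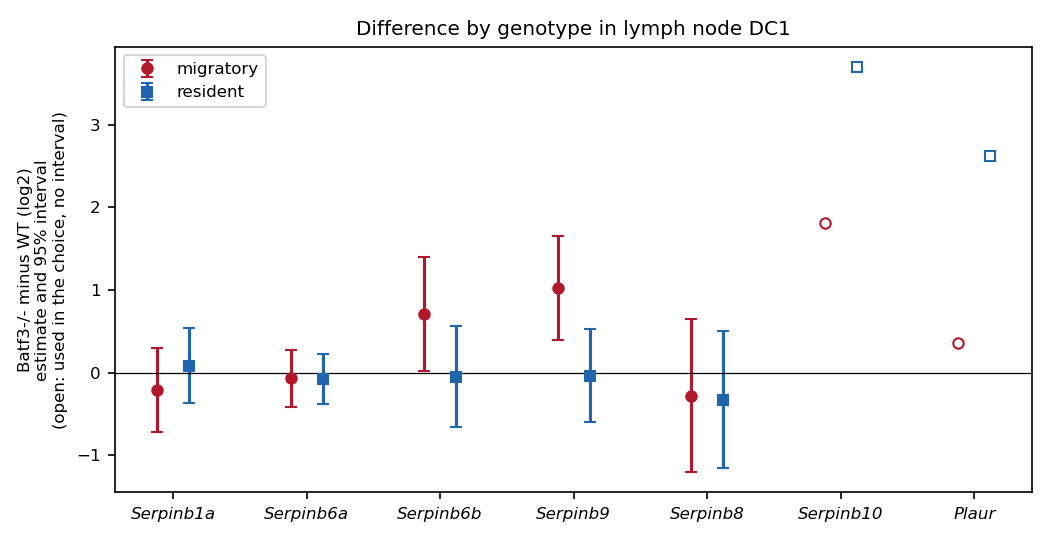
Batf3-/- minus WT log2 difference for 7 members on the lymph node arrays, in migratory (circles) and resident (squares) cells, with a 95% interval for the 5 that the choice did not use. The intervals of Serpinb1a, Serpinb6a and Serpinb8 include 0 in both states, and the open symbols of Serpinb10 (1.81 and 3.70) and Plaur (0.35 and 2.62) carry no interval, as a description.

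Whether the Batf3 difference itself differed by state was tested as migratory minus resident. This difference of differences was called for 1.24% of all genes and for 0 of the 4 members that the choice did not use (limma), among which Serpinb9 had an unadjusted p under 0.05. It was 1.06 ± 0.39 for Serpinb9 (adjusted p = 0.173) and 0.76 ± 0.42 for Serpinb6b (adjusted p = 0.345). Without migratory Batf3-/- replicate 3, Serpinb9 reached 1.27 with an adjusted p of 0.0382. For Serpinb10 it was -1.89 ± 0.43 and for Plaur -2.27 ± 0.76, given as description.

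Serpinb2 and Plau, the inhibitor and the protease of the same pathway, were dim in the lymph node and below the filter, so they were not tested there. Serpinb2 had 3.09, 3.20 and 2.94 on the migratory Batf3-/- arrays, 3.00 and 3.11 on the migratory WT arrays, 3.46, 3.68 and 3.74 on the resident Batf3-/- arrays and 3.14, 2.86 and 3.13 on the resident WT arrays. The resident Batf3-/- arrays were above the others, all under the table's median of 4.82. Plau had 3.51 to 3.91 on the migratory Batf3-/- arrays, 3.87 and 3.98 on the migratory WT arrays, 4.02 to 4.49 on the resident Batf3-/- arrays and 3.72 to 4.04 on the resident WT arrays. Every migratory Batf3-/- array of Plau was below every resident Batf3-/- array, while the genotypes overlapped in each state, as did the states in WT cells.

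Promoter letters are shown for the pair raised without Batf3, for the Serpinb8 neighbour of Serpinb10 and for Serpinb9, because BATF3 is known to bind AP-1 sites and joint AP-1 and IRF sites. RefSeq windows of the 250 bases before the start site, on GRCm38.p6, were found for 7 of the 9 members, and 2 members, Serpinb1a and Plau, are named only. The windows are chr1:107528753-107529002 for Serpinb10, chr7:24462233-24462482 for Plaur, chr1:107589756-107590005 for Serpinb8 and chr13:33004291-33004540 for Serpinb9, each on the plus strand and read 5′ to 3′. Capitals mark TGANTCA, the AP-1 letters, in the first 3 and, on the opposite strand, GAAANNGAAA, a pair of IRF letters, in Serpinb9.
Serpinb10: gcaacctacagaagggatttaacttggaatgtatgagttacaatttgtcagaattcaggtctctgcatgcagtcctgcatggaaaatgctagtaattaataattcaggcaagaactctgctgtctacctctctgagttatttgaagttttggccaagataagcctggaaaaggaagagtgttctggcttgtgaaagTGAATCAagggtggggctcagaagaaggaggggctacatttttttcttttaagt
Plaur: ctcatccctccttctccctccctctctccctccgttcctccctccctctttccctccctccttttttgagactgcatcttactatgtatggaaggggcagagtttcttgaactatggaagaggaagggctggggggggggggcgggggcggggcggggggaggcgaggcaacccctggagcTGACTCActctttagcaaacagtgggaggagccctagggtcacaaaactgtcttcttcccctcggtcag
Serpinb8: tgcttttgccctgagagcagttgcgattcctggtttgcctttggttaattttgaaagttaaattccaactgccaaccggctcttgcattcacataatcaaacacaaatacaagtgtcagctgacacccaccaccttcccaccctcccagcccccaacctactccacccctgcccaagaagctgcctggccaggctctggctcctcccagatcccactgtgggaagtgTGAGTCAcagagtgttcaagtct
Serpinb9: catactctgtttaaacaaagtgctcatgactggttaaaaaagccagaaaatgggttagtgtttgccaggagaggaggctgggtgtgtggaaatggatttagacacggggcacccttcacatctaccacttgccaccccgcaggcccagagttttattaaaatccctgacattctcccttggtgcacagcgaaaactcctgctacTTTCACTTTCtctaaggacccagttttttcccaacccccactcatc
The AP-1 letters began 54 bases before the start site in Serpinb10, 69 in Plaur and 23 in Serpinb8, and 94 before the first of the 2 annotated start sites of Serpinb2. They were in the windows of these 4 members and in 6.75% of all 32851 windows of that length, searched on both strands. The IRF pair began 46 bases before the start site in Serpinb9 and was in 1 of the 2 windows of Serpinb6a, against 2.98% of all windows. The joint letters GAAATGANTCA and TTTCNNNNTGANTCA, the CRE letters TGACGTCA, the ETS and IRF letters GGAANNGAAA and the kappaB motif were searched too and were in no member's window; they were in 0.1%, 0.0974%, 1.55%, 2.3% and 7.25% of all windows. A match describes letters in this window, and nothing is drawn from it about binding.

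Levels over the 11 lymph node arrays were compared by Pearson correlation as a description, since the arrays fall into groups. Serpinb1a correlated with Serpinb6a at 0.985, Serpinb9 at 0.928 and Serpinb6b at 0.912, and with Serpinb8 at -0.82. Serpinb10 and Plaur correlated at 0.780, while Serpinb1a and Serpinb10 correlated at -0.17. By the largest correlation among tested genes, the patterns most like Serpinb1a were those of Rab9 (0.997), Pcgf5 (0.993) and Ndnf (0.993). Those most like Serpinb10 were Garnl3 (0.942), Pglyrp1 (0.917) and Cdh17 (0.901), and those most like Plaur were Etv5 (0.954), Galnt3 (0.935) and Hivep2 (0.927). The 3 lists of nearest genes shared no gene.

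In spleen, 0 of the 7 members read apart from Plaur were called between Batf3-/- and WT Irf8VENUS+ cells (limma), where 0.738% of all 12875 tested genes were. Of these 7, Serpinb1a and Serpinb2 had an unadjusted p under 0.05, as 10.4% of all genes did. Serpinb2 had 7.32, 8.49 and 9.39 on the Batf3-/- arrays, 7.18, 5.86 and 7.60 on the WT Irf8VENUS+ arrays and 6.90 and 6.84 on the WT Irf8VENUS- arrays. The first Batf3-/- array fell inside the WT Irf8VENUS+ range. The Batf3-/- minus WT Irf8VENUS+ difference of Serpinb2 was 1.52 ± 0.39 (adjusted p = 0.176), with 1.79 among arrays sorted on CD24 alone and 1.38 among those sorted on CD24 and XCR1. Without WT Irf8VENUS+ replicate 1 it was 1.93 with an adjusted p of 0.0366. Plaur had 6.08, 5.36 and 7.04 on the Batf3-/- arrays, 5.19, 4.40 and 6.05 on the WT Irf8VENUS+ arrays and 4.95 and 5.38 on the WT Irf8VENUS- arrays, and its groups overlapped. Its Batf3-/- minus WT Irf8VENUS+ difference was 0.95 ± 0.26, with 0.99 among arrays sorted on CD24 alone and 0.93 among those sorted on CD24 and XCR1. These values of Plaur are a description, since this comparison is counted as used in its choice. Maturation markers moved with the genotype here too, with 2 of 7 called higher and list means of 8.18 to 8.49 on Batf3-/-, 6.65 to 7.24 on WT Irf8VENUS+ and 7.36 to 7.69 on WT Irf8VENUS- arrays. All 7 had an unadjusted p under 0.05 (limma), against 10.4% of all genes. Of 7 DC1 markers 2, Batf3 itself and Cadm1, were called lower in Batf3-/- than in WT Irf8VENUS+ cells, with list means of 9.44 to 9.76 on Batf3-/-, 10.18 to 10.59 on WT Irf8VENUS+ and 10.20 to 10.38 on WT Irf8VENUS- arrays. Of 5 tested cDC2 markers 1 was called higher, with list means of 6.14 to 6.18 on Batf3-/-, 5.68 to 5.90 on WT Irf8VENUS+ and 5.66 to 5.67 on WT Irf8VENUS- arrays, as was 1 of 2 tested Langerhans cell markers. The part of these cells or states in the member values was not tested.

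Serpinb1a in spleen had 5.48, 5.47 and 5.48 on the Batf3-/- arrays, 7.19, 5.49 and 6.84 on the WT Irf8VENUS+ arrays and 5.64 and 5.36 on the WT Irf8VENUS- arrays. Replicates 1 and 3 of WT Irf8VENUS+ were high, and replicate 2 was at the level of the other groups. The Batf3-/- minus WT Irf8VENUS+ difference of Serpinb1a was -1.03 ± 0.38 (adjusted p = 0.389), and without WT Irf8VENUS+ replicate 2 it was -1.56 with an adjusted p of 0.0203. Serpinb8 had 7.16, 6.78 and 7.61 on the Batf3-/- arrays, 5.00, 6.59 and 7.29 on the WT Irf8VENUS+ arrays and 7.87 and 8.10 on the WT Irf8VENUS- arrays. The WT Irf8VENUS+ arrays were spread widely and all lay below the WT Irf8VENUS- ones. Its difference was 0.89 ± 0.39 (adjusted p = 0.487) between Batf3-/- and WT Irf8VENUS+, and -2.04 ± 0.46 (adjusted p = 0.385) between WT Irf8VENUS+ and WT Irf8VENUS- cells. In that comparison by reporter, 0 of the 8 members were called (limma), 1 (Serpinb8) had an unadjusted p under 0.05, and 0.0233% of all genes were called. Serpinb1a differed by 0.92 ± 0.45 (adjusted p = 0.657) between WT Irf8VENUS+ and WT Irf8VENUS- cells.

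The remaining spleen members were steadier. Serpinb9 averaged 8.36 ± 0.18 on Batf3-/-, 8.01 ± 0.18 on WT Irf8VENUS+ (SD, n = 3 each) and 8.13 ± 0.21 on WT Irf8VENUS- arrays (SD, n = 2), and the Batf3-/- minus WT Irf8VENUS+ difference was 0.36 ± 0.18 (adjusted p = 0.561). Serpinb6b ranged from 8.95 to 9.12 on Batf3-/-, 8.41 to 9.07 on WT Irf8VENUS+ and 8.77 to 8.92 on WT Irf8VENUS- arrays, a Batf3-/- minus WT Irf8VENUS+ difference of 0.24 ± 0.19 (adjusted p = 0.721). Serpinb6a ranged from 5.21 to 5.75 over all spleen arrays. Plau, which was above the filter in spleen, had 4.98, 6.35 and 5.93 on the Batf3-/- arrays, 5.26, 5.46 and 5.01 on the WT Irf8VENUS+ arrays and 5.36 and 5.72 on the WT Irf8VENUS- arrays, with a Batf3-/- minus WT Irf8VENUS+ difference of 0.51 ± 0.33 (adjusted p = 0.664). The Batf3-/- and WT Irf8VENUS+ arrays overlapped for Serpinb6a, Serpinb6b, Serpinb9 and Plau, while every Batf3-/- array of Serpinb6b lay above both WT Irf8VENUS- arrays. Spleen and lymph node levels come from separate array types and were not compared.

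**Figure D5:**
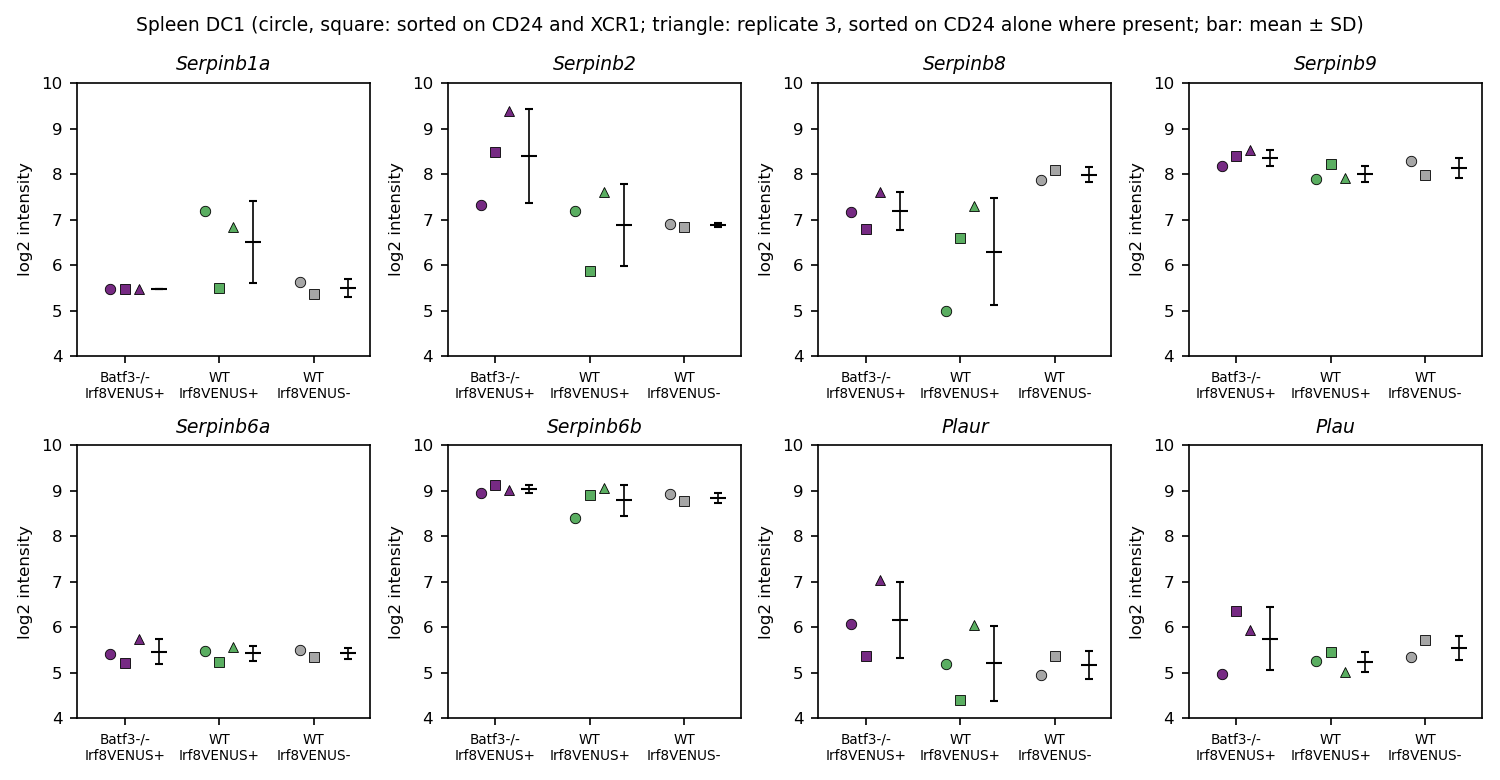
Log2 intensity of the 8 members with a spleen probe set on each spleen array, for Batf3-/- Irf8VENUS+, WT Irf8VENUS+ and WT Irf8VENUS- cells, with the group mean ± SD beside the points. Serpinb2 reaches 9.39 in Batf3-/- cells, Serpinb1a is high on 2 of 3 WT Irf8VENUS+ arrays, and the Batf3-/- and WT Irf8VENUS+ arrays of Serpinb6a, Serpinb6b and Serpinb9 overlap.

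Other genes of the plasminogen system, 11 of a list of 22 passing the filter in the lymph node, were read beside Plaur. Between resident Batf3-/- and WT cells 0 of the 11 rose and 1 fell, Plgrkt, a plasminogen receptor, with a difference of -0.99 ± 0.23 (adjusted p = 0.0470). Of all tested genes 1.84% were called there. Between migratory and resident cells 2 rose and 0 fell in Batf3-/-, and 3 rose and 2 fell in WT cells, shares of the 11 that do not exceed the 36.6% and 49.2% of all genes called. Plat, the tissue plasminogen activator, differed by 2.09 ± 0.25 in Batf3-/- (adjusted p = 3.44e-05) and 1.53 ± 0.28 in WT cells (adjusted p = 8.09e-04), and Plgrkt by 2.07 ± 0.23 (adjusted p = 1.70e-05) and 1.64 ± 0.25 (adjusted p = 2.46e-04) in the same order. Plat and Plgrkt were thus higher in migratory cells of both genotypes, within a list that was called no more often than all genes. The median of the list was 0.21 in Batf3-/- and 0.28 in WT cells, against -0.02 and -0.16 over all genes.

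Among 7 tested partner receptors of the urokinase receptor, Itgb2, the beta chain of Mac-1 and LFA-1, was lower in migratory than in resident cells, with differences of -3.10 ± 0.21 in Batf3-/- (adjusted p = 4.27e-07) and -3.65 ± 0.24 in WT cells (adjusted p = 4.97e-07). Itgb5 was higher, by 1.00 ± 0.16 in Batf3-/- (adjusted p = 3.08e-04) and 1.30 ± 0.18 in WT cells (adjusted p = 9.60e-05). In all, 2 rose and 1 fell in Batf3-/- cells, where 36.6% of all genes were called, and 1 rose and 3 fell in WT cells, where 49.2% were, so the counts of 3 and 4 of 7 are near the background. Between genotypes 0 of 7 were called among resident cells (limma, 1 at an unadjusted p under 0.05), and 1, Itgb1, was 0.81 ± 0.20 higher in migratory Batf3-/- cells (adjusted p = 0.0305). Of all tested genes 1.84% were called between resident and 9.41% between migratory genotypes.

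Proteases that serpins or their relatives act on, and cathepsins, had 12 tested genes. Casp4, an inflammatory caspase, was higher in migratory than in resident cells by 1.11 ± 0.20 in Batf3-/- (adjusted p = 8.47e-04) and 2.64 ± 0.22 in WT cells (adjusted p = 3.25e-06). Furin was lower in migratory cells, as was Serpinb8, with -0.79 ± 0.28 in Batf3-/- (adjusted p = 0.0429) and -1.84 ± 0.31 in WT cells (adjusted p = 5.24e-04). In all, 3 rose and 2 fell with migration in each genotype, 5 of 12, which is near the 36.6% of all genes called in Batf3-/- and the 49.2% in WT cells. Between genotypes 0 of 12 were called among resident cells (limma, 3 at an unadjusted p under 0.05), and among migratory cells 2 rose and 1 fell, with Ctsh (cathepsin H) 1.14 ± 0.18 higher in Batf3-/- cells (adjusted p = 0.00715). Over all tested genes, 1.84% were called between resident genotypes, with 9.61% at an unadjusted p under 0.05, and 9.41% were called between migratory genotypes. Of the 3 tested serpins outside clade B, Serpinc1, the antithrombin gene, was higher in migratory cells by 1.16 ± 0.15 in Batf3-/- (adjusted p = 7.08e-05) and 1.44 ± 0.17 in WT cells (adjusted p = 3.54e-05), and Serpinf1, the gene of pigment epithelium-derived factor, was lower, with differences of -0.84 ± 0.16 (adjusted p = 0.00106) and -0.96 ± 0.18 (adjusted p = 8.23e-04). Between genotypes 0 of the 3 were called in either state, and 0 had an unadjusted p under 0.05 (limma). In spleen, 0 of 37 tested entries of these plasminogen, receptor, serpin and protease lists were called in either comparison (limma). At an unadjusted p under 0.05 there were 6 between Batf3-/- and WT Irf8VENUS+ cells and 2 between WT Irf8VENUS+ and WT Irf8VENUS- cells. The shares of all tested genes at such a p were 10.4% and 7.91% in the same order.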

How the data were processed

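Gene expression was measured on Affymetrix arrays, 8 of spleen DC1 and 11 of lymph node DC1, in 2 deposited tables that were tested separately. The deposited spleen values are intensities on a linear scale and were turned into log2 here, and the deposited lymph node values are log2 intensities; the authors used RMA, per the submitters' processing notes. Gene symbols came from the platform annotation, updated through RefSeq gene identifiers. Of the spleen probe sets, 23521 of 41345 had 1 symbol, 1814 several and 16010 none, and of the lymph node ones 21789 of 35556, 1621 and 12146. Each gene was read from its brightest single-symbol probe set and tested when at least 2 arrays reached the table's median (5.04 in spleen, 4.82 in lymph node), which left 12875 and 11931 genes.

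Differences were tested with limma 3.58.1 (R 4.3.3) and a mean-variance trend, all arrays of a table in 1 fit, the sort gate as a term in spleen, and Benjamini-Hochberg adjustment over all genes tested, with a call at an adjusted p of at most 0.05. Differences carry the moderated standard error (SE). The 9 members and the gene lists were chosen with earlier results of these data known. No p is printed for Serpinb1a in comparisons by migration, nor for Serpinb10 and Plaur in any, since the choice of genes used those arrays. None is printed by migration for Serpinb6a, Serpinb1b and Serpinb9b, where the filter on dim genes favoured higher migratory values. Named genes were the members, the 3 genes most alike to each of Serpinb1a, Serpinb10 and Plaur, up to 3 called genes per list and comparison with the smallest p, and Batf3, Irf8, Ccr7 and Xcr1 as checks; Serpinb9e was named after its values were seen. The fit was tested on simulated data. Replicate numbers are shared across groups, and lymph node titles with the same number share a code. Same-numbered migratory and resident Batf3-/- arrays deviated together in 3 of 3 pairs (correlations of 0.21 to 0.48). Replicate 1 of either state also correlated with replicate 2 of the other, at 0.18 and 0.22. Replicate 3 of either state had correlations of -0.45 to -0.28 with replicates 1 and 2 of the other. Replicate 3 thus stood apart, while the numbers were not shown to pair replicates 1 and 2. The replicate block was kept as an alternative, and it changed no member's call between migratory and resident Batf3-/- cells. Over all groups the correlation passed 0.1 in 7 of 15 lymph node and 2 of 7 spleen pairs of the same number. It did so in 7 of 30 and 1 of 14 pairs of different numbers, so the numbers were not taken to pair the groups. The alternatives were other filters, quantile normalization of the tables again, the mean of probe sets, only the compared groups, the replicate block, the gate left out or restricted, array spread as a term and leaving out each array.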

Additional observations from a re-analysis of the deposited data

Results flagged for a closer look

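The only spleen probe set for Serpinb10 is annotated to both Serpinb10 and Serpinb2 and so was left out of the spleen comparisons. It gave a signal in data those comparisons do not use: its mean log2 intensity was 8.41 ± 0.77 on Batf3-/- arrays, 6.20 ± 1.47 on WT Irf8VENUS+ arrays (SD, n = 3 each) and 6.58 ± 0.45 on WT Irf8VENUS- arrays (SD, n = 2). The arrays had 7.87, 8.05 and 9.29 in Batf3-/- cells, 6.70, 4.54 and 7.36 in WT Irf8VENUS+ cells and 6.27 and 6.90 in WT Irf8VENUS- cells, so every Batf3-/- array was above every WT array. That separation was the condition for listing the probe set here, and the share of all probe sets so separated was not counted. The single-symbol probe set of Serpinb2 had 7.32, 8.49 and 9.39 on the Batf3-/- arrays. It had 7.18, 5.86 and 7.60 on the WT Irf8VENUS+ and 6.90 and 6.84 on the WT Irf8VENUS- arrays. Serpinb10 was itself chosen as higher without Batf3. Which of the 2 genes gave the signal of the shared probe set cannot be told apart, and the difference was not tested.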

How the results depend on the processing

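Of the member values under alternatives, 473 kept direction and side of the threshold, 18 dropped below it, 11 passed it and 15 changed direction. Between spleen Batf3-/- and WT Irf8VENUS+ cells, 95 genes were called, against 46 with only the compared groups, 25 with only arrays sorted on CD24 and XCR1, and 24 to 149 when each array was left out (24 without WT Irf8VENUS+ replicate 3, 149 without its replicate 1), with 0 to 1 members. By reporter 3 were called, against 1 without the filter, 0 with only the compared groups, 0 with the replicate block and 0 to 15 when arrays were left out. Between resident genotypes 220 were called, against 342 with only the compared groups, 429 with array spread and 95 to 177 when arrays were left out, with 1 to 2 members past the threshold, which are Serpinb10 and Plaur; both were chosen on these arrays, so this count says nothing of stability. Between migratory genotypes 1123 were called, against 2104 without the filter, 7 with only the compared groups, 2464 with the replicate block, 37 with array spread and 109 to 3570 when arrays were left out (109 without WT replicate 1, 3570 without Batf3-/- replicate 3). Members called there, 2 with Serpinb10, were 1 after quantile normalization again (Serpinb9 at 0.80, adjusted p = 0.0742), 0 with only the compared groups (Serpinb9 at 1.02, adjusted p = 0.121), 0 with array spread and 0 to 3 when arrays were left out; with the replicate block Serpinb6b passed (0.94, adjusted p = 0.0127). Between migratory and resident WT cells 5870 were called, against 8873 without the filter and 1263 with array spread, when 3 of 5 members stayed past the threshold. Serpinb1a, chosen on these arrays, and Serpinb6a, favoured by the filter, are among the 5, so this count says nothing of their stability. For the difference of differences, 148 were called, against 297 without the filter, 543 with the replicate block, 30 with array spread and 17 to 1713 when arrays were left out; members called were 0, against 1 without the filter, 1 with the stricter filter, 1 with the replicate block and 0 to 2 when arrays were left out, which apart from Serpinb9 are Serpinb10 and Plaur again. Between migratory and resident Batf3-/- cells 4664 were called with the replicate block, against 4371, and apart from Serpinb6b and Serpinb10 above the block changed no member's call. With array spread, directions turned among resident genotypes for Serpinb6b (0.086) and Serpinb9 (0.060), among migratory genotypes for Plaur (-1.66), Serpinb1a (0.015) and Serpinb6b (-0.59), for Plaur in WT migration (3.16) and for Serpinb6b in the difference of differences (-0.67). Leaving out arrays gave, among resident genotypes, -0.090 to 0.27 for Serpinb1a, -0.26 to 0.29 for Serpinb6b, -0.78 to 0.10 for Serpinb8 and -0.32 to 0.24 for Serpinb9, among migratory genotypes -0.15 to 0.86 for Plaur, and in WT migration -0.66 to 0.35 for Plaur and -0.094 to 0.42 for Serpinb10. The cause was not tested. Groups of 2 or 3 arrays limit the precision, and the tables hold no measure of background per probe, so levels of Serpinb2 and Plau in the lymph node cannot be set apart from none.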
